A study of Mus musculus with 6 samples.

Results

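A set of 10 well-established target genes of the transcription factor p53 was followed in mouse heart RNA. They were chosen by name, with earlier results of these data known. They include genes that halt the cell cycle, feed back on p53, promote cell death, bind RNA or restrain growth. The 10 genes, among 35976 in the deposited table, were Cdkn1a, Mdm2, Ccng1, Bax, Phlda3, Zmat3, Trp53inp1, Eda2r, Ddit4l and Sesn2. All of them passed the filter on low counts and were tested.

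The study is about silencing a gene in the heart by base editing from an adeno-associated virus (AAV), here Camk2d, the main cardiac gene of calcium/calmodulin-dependent kinase II. The 6 libraries came from hearts of wild-type (WT) mice, and the treatment of the 3 edited ones is labelled AAV-MYL2-TadA8e-Sauri-U6-Camk2d sgRNA7. The virus carries an adenine base editor, built from the deaminase TadA8e and a Cas9 named Sauri, under the heart muscle promoter MYL2, with a guide RNA. The other 3 hearts, the controls, had no treatment, so virus, editor, guide and edit cannot be told apart in this contrast. The labels give no strain, age, sex, dose or interval and name no animal behind a replicate. The p-values therefore measure the spread between these libraries, which may be technical.

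The protein p53 is a transcription factor that is kept scarce by the ubiquitin ligase Mdm2 and accumulates when DNA is damaged or growth signals are abnormal. It then switches on genes that stop the cell cycle, return it to its low level, adjust growth and metabolism or start cell death. Adult heart muscle cells rarely divide, and p53 in the heart is known mainly from work on stress and cell loss. Several of these genes also answer to other factors, so their RNA is not a measure of p53 alone.

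Total counts were 17062412 to 23097998 per library. Camk2d, the edited gene, was at 226, 220 and 224 CPM (counts per 1000000, scaled by TMM factors) in controls 1, 2 and 3 and at 138, 130 and 164 CPM in edited 1, 2 and 3. Its log2 change was -0.63 (SE 0.07, edgeR adjusted p = 0.000476). Libraries also stood apart in 2 other ways. Summed atrial markers were 43.8 CPM in control 3 and 61.9 CPM in control 1, against 1990 CPM in control 2 and 1270 to 2820 CPM in edited hearts. Control 1 had 574 CPM of Xist and 0 counts of the Y-linked Ddx3y, while the other 5 libraries had at most 1.1 CPM of Xist and at least 54.2 CPM of Ddx3y. Markers of heart muscle were abundant in every library (summed 56600 to 68700 CPM).

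Promoter sequence was available for 8 of the 10 genes in 9 windows from RefSeq (GRCm38.p6, the assembly behind mm10), each from 250 bases before to 50 bases after a transcript start. Zmat3 and Trp53inp1 had none. The p53 half-site was searched as the pattern RRRCWWGYYY of 10 bases (R is A or G, W is A or T, Y is C or T). The pattern, though not every match to it, reads the same on both strands. An exact half-site occurred in 5 of the 9 windows, against 8.36% of all 32851 windows. A full site, here 2 half-sites with at most 13 bases between them, occurred exactly in 1 window, that of the upstream Cdkn1a start, against 0.0731% of all windows. With up to 2 mismatches outside the central C and G of each half-site, full sites were found in 3 of the 9 windows (Cdkn1a, Ccng1 and Bax) and in 4.09% of all windows. A match is a description of these letters and not a measured binding site.

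The window of the upstream Cdkn1a start is shown whole because it holds the exact full site, and for the other genes a stretch around the match is shown. Capitals mark exact half-sites and, in each window, the full site with the fewest mismatches, as in Ccng1 and Bax. Other pairs with mismatches stay in lower case, and no other motif was searched. In Cdkn1a, the 10 bases right after the second capitalised half-site match a half-site except at their first base. The Cdkn1a window lies at chr17:29090729-29091028 on the plus strand, and its pair of half-sites is separated by 12 bases and begins 73 bases before the start. That start lies 2790 bases upstream of the second Cdkn1a start, whose window held no half-site.

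Cdkn1a: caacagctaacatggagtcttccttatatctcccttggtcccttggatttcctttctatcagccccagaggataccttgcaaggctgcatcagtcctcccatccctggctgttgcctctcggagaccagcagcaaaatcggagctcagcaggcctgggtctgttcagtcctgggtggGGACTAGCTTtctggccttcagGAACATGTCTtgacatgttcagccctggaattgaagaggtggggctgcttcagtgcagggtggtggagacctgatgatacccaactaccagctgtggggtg
Ddit4l: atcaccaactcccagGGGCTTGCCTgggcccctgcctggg
Mdm2: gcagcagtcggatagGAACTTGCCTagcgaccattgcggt
Ccng1: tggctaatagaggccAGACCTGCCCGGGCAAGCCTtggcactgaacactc
Bax: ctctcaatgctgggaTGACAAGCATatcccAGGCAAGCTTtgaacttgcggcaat

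The Ddit4l stretch (chr3:137623567-137623606, plus strand) and the Mdm2 stretch (chr10:117710920-117710959, minus strand) each hold 1 exact half-site. In Ccng1 (chr11:40755447-40755496, minus strand) the half-sites adjoin with 1 mismatch in all, and in Bax (chr7:45467075-45467129, minus strand) they lie 5 bases apart with 2 mismatches. The windows of Phlda3, Sesn2 and Eda2r held no exact half-site. The Phlda3 window ends partway through a stretch that matches the start of a half-site, and bases beyond the windows were not searched. Of the 5 genes with an exact half-site, Cdkn1a and Ddit4l rose in edited hearts, and Ccng1, Mdm2 and Bax did not pass the threshold.

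In edited hearts 4 of the 10 genes rose and 0 fell. These were Cdkn1a, Phlda3, Zmat3 and Ddit4l, which is 40.0% of the genes, against 4.93% of all 14879 tested genes called higher and 4.74% called lower. The test was edgeR's quasi-likelihood test with Benjamini-Hochberg adjustment over all tested genes and a threshold of 0.05. Over the 10 genes the median log2 change (edited over control) was 0.31, with a range of -0.16 to 2.43, and over all tested genes it was 0.00. In 7 of the 10 every edited library lay above every control, against 14.6% of all tested genes, and in 0 every edited library lay below (14.7% of all tested genes). The genes were chosen with earlier results of these data known, so these shares are a description. With upper-quartile scaling 849 genes were called higher and 531 lower over the whole table, against 733 and 705 with TMM, and 6 of the 10 p53 targets were then called higher. At an unadjusted p under 0.05, 7 of the 10 were higher and 1, Ccng1, was lower. The share of all tested genes at that looser threshold was not counted, so these counts have no background beside them.

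**Figure D1:**
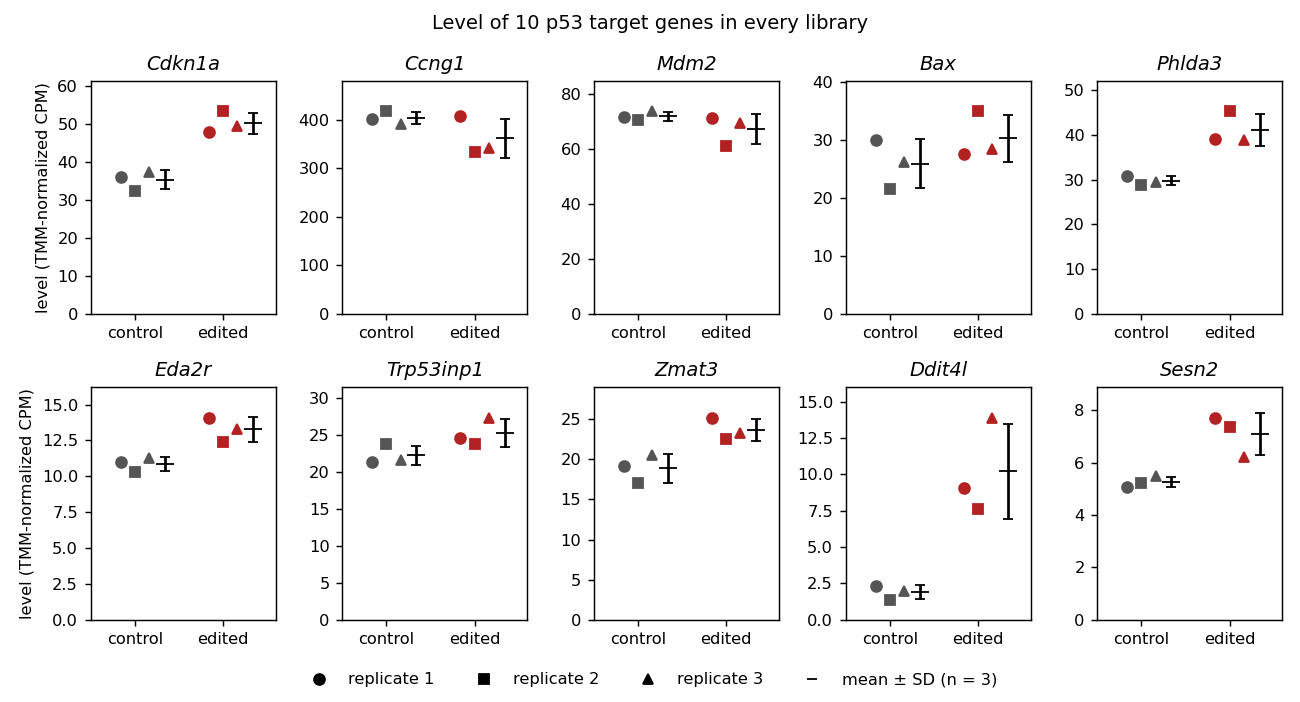
Level of each gene in TMM-normalized CPM (vertical axis, from 0) in the 3 control and 3 edited libraries, with symbols for the replicate and bars for mean ± SD (n = 3). The edited points lie above all control points for Cdkn1a, Phlda3, Eda2r, Trp53inp1, Zmat3, Ddit4l and Sesn2 and overlap them for Ccng1, Mdm2 and Bax.

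Among the genes that halt the cell cycle, Cdkn1a rose and Ccng1 did not pass the threshold. Cdkn1a encodes p21, an inhibitor of cyclin-dependent kinases (chromosome 17, 29090979 to 29100722 in mm10). It stood at 36.2, 32.5 and 37.5 CPM in controls and at 47.9, 53.4 and 49.5 CPM in edited 1, 2 and 3. The lowest edited library was above the highest control, and the spread was small in both groups, with a coefficient of variation of 7.3% and 5.61%. The fold was 1.42, with a range of 1.29 to 1.56 at ±2 SE (log2 0.50, SE 0.07, edgeR adjusted p = 0.00089). Ccng1 encodes cyclin G1, which guides a phosphatase to Mdm2, and it was by far the most abundant of the 10. Its levels were 402, 418 and 392 CPM in controls and 409, 335 and 342 CPM in edited hearts, so that edited 1 lay among the controls and the other two below them. Its log2 change was -0.16 (SE 0.07, edgeR adjusted p = 0.189), and without edited 1 it was -0.26 and called lower (edgeR adjusted p = 0.0123).

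Mdm2, the gene that closes the feedback loop on p53, stayed under the threshold. It was at 71.8, 70.6 and 73.8 CPM in controls and at 71.4, 61.2 and 69.7 CPM in edited hearts. Edited 2 was the low library and edited 1 lay within the controls. The log2 change was -0.10 (SE 0.07, edgeR adjusted p = 0.407), and the fold at ±2 SE ran from 0.856 to 1.02.

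Of the 4 genes tied to cell death, Phlda3 rose and Bax, Eda2r and Trp53inp1 did not pass. Phlda3 is a small lipid-binding protein that keeps the survival kinase Akt from the membrane (chromosome 1, 135766085 to 135769134). It was at 30.9, 28.9 and 29.5 CPM in controls and at 39.1, 45.3 and 38.9 CPM in edited hearts. The controls lay close together, and every edited heart was above them, edited 2 the most. The fold was 1.38, from 1.25 to 1.53 at ±2 SE (log2 0.46, SE 0.07, edgeR adjusted p = 0.00186).

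Bax, which forms pores in the outer mitochondrial membrane, had 30.0, 21.5 and 26.1 CPM in controls and 27.5, 34.9 and 28.4 CPM in edited hearts. Control 1 was above 2 of the edited libraries, and the log2 change of 0.23 (SE 0.13, edgeR adjusted p = 0.345) was within this spread. Eda2r, a receptor of the tumour necrosis factor family that binds ectodysplasin A2, had 11.0, 10.3 and 11.3 CPM in controls and 14.1, 12.4 and 13.3 CPM in edited hearts. Its groups were apart, but its log2 change of 0.29 (SE 0.09) missed the threshold (edgeR adjusted p = 0.0664). Eda2r lies on chromosome X, and control 1, the library with Xist, lay between the other two controls. Without control 1 its log2 change was again 0.29 (edgeR adjusted p = 0.138). Trp53inp1, a stress protein that promotes p53 activity and autophagy, had 21.4, 23.8 and 21.7 CPM in controls and 24.6, 23.8 and 27.4 CPM in edited hearts. The highest control and the lowest edited library were level at this rounding, and the log2 change was 0.18 (SE 0.08, edgeR adjusted p = 0.176).

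Zmat3, a zinc finger protein that binds RNA and alters its stability and splicing, rose by a small amount. It stood at 19.1, 17.0 and 20.5 CPM in controls and at 25.2, 22.5 and 23.3 CPM in edited hearts, with no overlap. The fold was 1.26, from 1.12 to 1.41 at ±2 SE (log2 0.33, SE 0.08, edgeR adjusted p = 0.0246). This call was lost when any of control 1 (edgeR adjusted p = 0.0677), control 2 (0.0875), edited 1 (0.0652) or edited 3 (0.0749) was left out. Of its exon bases, 2.18% overlap the gene 4930429B21Rik on the other strand, the one such overlap among the 10 genes.

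The largest change was in Ddit4l, one of a pair of genes here that restrain the growth kinase complex mTORC1. Ddit4l (chromosome 3, 137623672 to 137628332) was scarce in controls, with 39, 26 and 38 counts or 2.33, 1.37 and 1.98 CPM. Edited hearts had 213, 135 and 249 counts or 9.08, 7.63 and 13.9 CPM. The lowest edited heart was above every control, and edited 3 was 1.82 times the level of edited 2, the widest spread of the 10 genes within edited hearts. The fold was 5.39, from 3.69 to 7.88 at ±2 SE (log2 2.43, SE 0.27, edgeR adjusted p = 0.00146). In a test for a change above 1.5-fold, it was the 1 gene of the 10 to pass.

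Sesn2 encodes a sestrin, which restrains mTORC1 when leucine is short. Its levels were 5.08, 5.21 and 5.48 CPM in controls and 7.72, 7.35 and 6.20 CPM in edited hearts. The groups were apart, and the log2 change was 0.43 (SE 0.13), just short of the threshold (edgeR adjusted p = 0.0519). It rested on 85 to 181 counts per library.

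**Figure D2:**
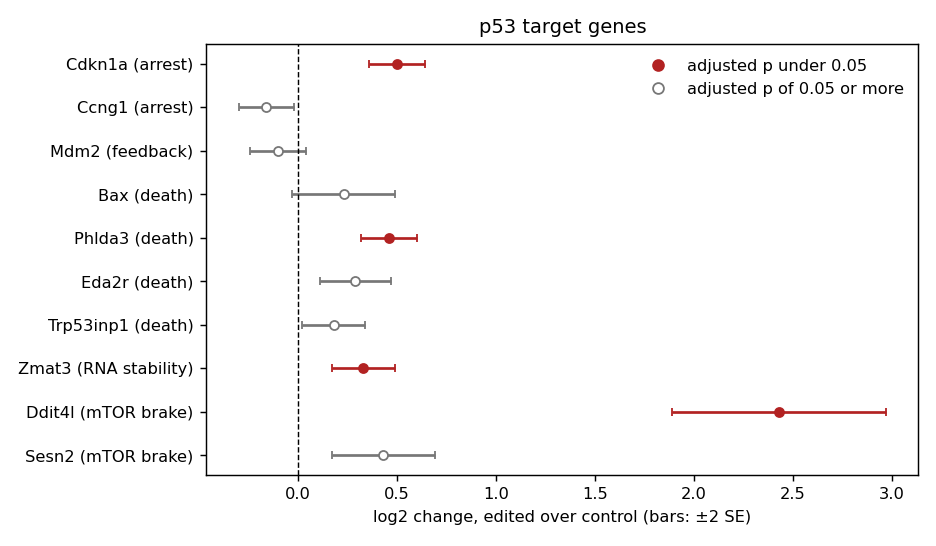
Log2 change, edited over control (horizontal axis), of each gene with bars of ±2 SE and its role in brackets. Filled red points were below 0.05 after adjustment (edgeR), and the 4 of them run from 0.33 for Zmat3 to 2.43 for Ddit4l.

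Per length of transcript, the genes covered a wide range of levels in control hearts. Ccng1 led at 246 ± 11 TPM (length-corrected counts scaled to the same total in each library; SD, n = 3), followed by Phlda3 at 43.4 ± 1.1, Cdkn1a at 37.2 ± 2.3, Bax at 24.8 ± 3.8 and Mdm2 at 21 ± 0.32 TPM. Trp53inp1 was at 8.78 ± 0.64, Zmat3 at 4.96 ± 0.41, Sesn2 at 4.23 ± 0.16, Eda2r at 3.78 ± 0.13 and Ddit4l at 1.49 ± 0.37 TPM. Neighbours in this order did not overlap over the 3 controls, except Bax and Mdm2. In edited hearts the first 6 places were unchanged, and Ddit4l went from place 10 to place 7 at 8.63 ± 2.9 TPM. The 4 genes that rose held places 2, 3, 7 and 10 in control hearts.

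The libraries with the highest and lowest levels differed between genes. Control 2 was the lowest control for 7 of the 10 genes, among them all 4 that rose. In edited hearts Cdkn1a and Phlda3 were highest in edited 2, Zmat3 in edited 1 and Ddit4l in edited 3. Edited 2 was the lowest edited library for 6 of the 10 genes. Without control 2, the median log2 change of the 10 genes was 0.25, and without control 3 it was 0.36.

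Atrial and mesothelial markers moved with the groups too. All 5 tested atrial markers of 6 had a positive log2 change, 0 were called, and controls 1 and 3 were low in their sum. The sixth, Bmp10, was not tested. It had 1933 counts in control 2, 1 in each of the other two controls and 0, 0 and 2 in edited hearts, so the atrial RNA of control 2 was unlike that of the edited hearts in this gene. With controls 1 and 3 left out, the control arm was control 2 alone, which is assumed to vary as the edited libraries do. Control 2 was the lowest control for each of the 4 genes that rose, so larger estimates follow from that choice. Cdkn1a was called in this fit (log2 0.63, edgeR adjusted p = 0.0221). Phlda3 (0.51, adjusted p = 0.0744), Zmat3 (0.49, adjusted p = 0.0897) and Ddit4l (2.89, adjusted p = 0.0735) were not called. With the atrial transcript Myl7 as a covariate, Cdkn1a was called (0.64, adjusted p = 0.00882) and Phlda3 (0.50, adjusted p = 0.0551), Zmat3 (0.49, adjusted p = 0.0701) and Ddit4l (2.59, adjusted p = 0.0689) were not. Over the whole table the calls fell to 77 higher and 92 lower in the first of these fits and to 44 higher and 82 lower in the second.

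Of 8 mesothelial markers 6 rose (Krt8, Krt18, Krt19, Lrrn4, Msln and Upk1b) and 1, Wt1, fell. Over all tested genes 4.93% were called higher and 4.74% lower. The mesothelial sum was 28.4 to 29.5 CPM in controls and 52.0, 59.7 and 34.5 CPM in edited 1, 2 and 3. Summed heart muscle markers were lower in edited hearts (56600 to 60800 against 66800 to 68700 CPM), and 3 of 6 fell, while endothelial markers (1390 to 1480 against 1460 to 1470 CPM) held 0 calls. Of 6 fibroblast markers 1, Lum, rose. The tested markers of smooth muscle and pericytes, of macrophages and leukocytes and of erythroid cells held 0 calls. In bulk RNA, a change in the share of cells that express a gene and a change in RNA per cell cannot be told apart. The part of atrial, heart muscle and mesothelial content in these results was not tested.

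**Figure D3:**
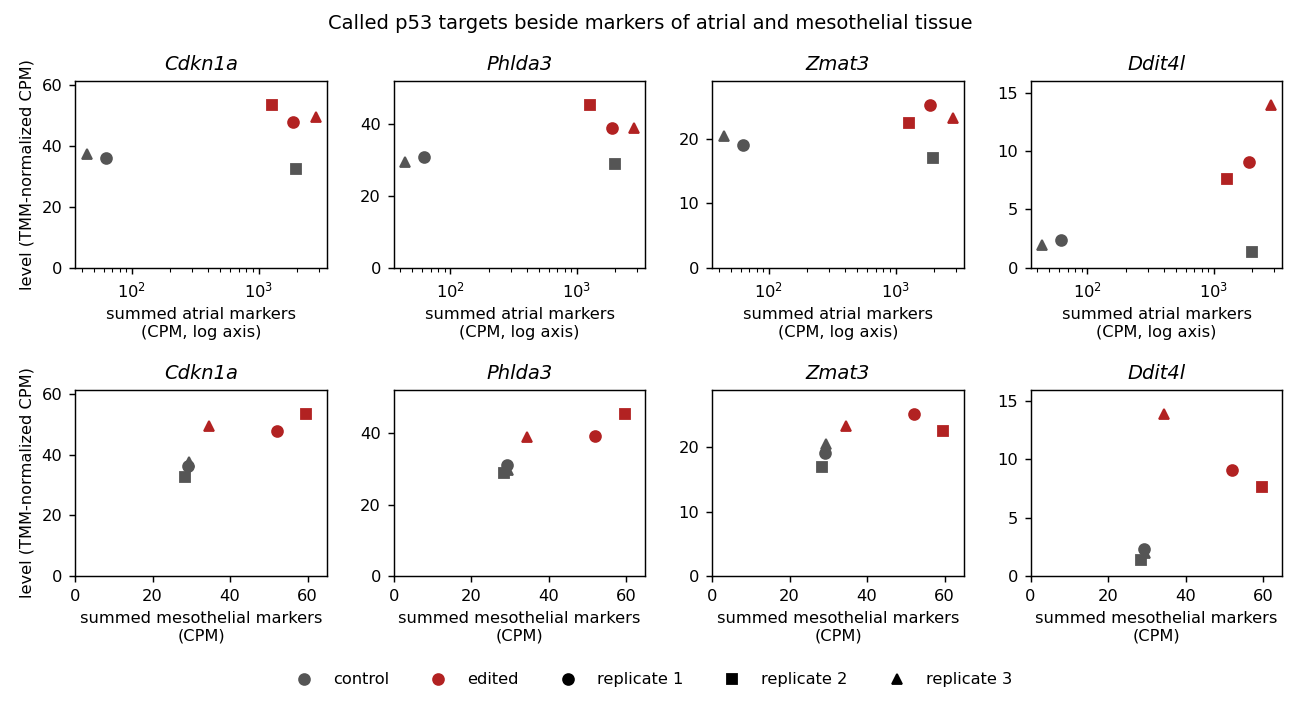
Level of the 4 genes that rose (vertical axes, TMM-normalized CPM) against the summed atrial markers (upper row, log axis) and mesothelial markers (lower row) in each library. In the upper row control 2 sits among the edited hearts on the horizontal axis and below all of them on the vertical axis.

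In a wider set of p53 targets, also chosen with earlier results known, a few genes rose. Of 32 further targets, 31 were tested, 4 rose and 0 fell, which is 12.9% called higher, against 4.93% of all tested genes. In either direction 9.66% of all tested genes were called. Their median log2 change was 0.08, and every edited library lay above every control in 11 (14.6% of all tested genes) and below in 2 (14.7%), Plk3 and Ei24. At an unadjusted p under 0.05, 0 of the further targets were lower, but the share of all tested genes at that threshold was not counted. Pmaip1, which encodes the death protein Noxa, was too scarce to test, with 2 to 11 counts per library.

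The 4 that rose were Rprm, Ptprv, Pidd1 and Ephx1. Rprm, a mediator of arrest before mitosis, had 0, 5 and 1 counts in controls and 52, 17 and 35 in edited hearts (log2 3.91, SE 0.61, edgeR adjusted p = 0.00313). Ptprv, a phosphatase gene of the arrest response in mice, had 8, 11 and 11 counts against 27, 31 and 21 (log2 1.29, SE 0.30, edgeR adjusted p = 0.0171). Pidd1, which assembles a caspase-activating complex, went from 6.23 ± 1.1 to 8.69 ± 0.56 CPM (SD, n = 3; edgeR adjusted p = 0.0424). Ephx1, an epoxide hydrolase, went from 18.0 ± 0.63 to 24.8 ± 2.3 CPM (SD, n = 3; edgeR adjusted p = 0.00386). All 4 had groups that did not overlap. In the fit with control 2 alone, and in that with Myl7, 0 of the further targets were called by edgeR, and calls over the whole table were few as given above.

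The remaining 27 did not pass. The direct death effector Bbc3 (Puma) had a log2 change of 0.02 (SE 0.17), the death receptor gene Fas -0.13 (SE 0.13) and Tnfrsf10b 0.06 (SE 0.11). The repair genes Ddb2 and Xpc had -0.11 (SE 0.13) and 0.09 (SE 0.08). The arrest genes Btg2 and Gadd45a had -0.09 (SE 0.06) and -0.07 (SE 0.11), and the feedback phosphatase Ppm1d had 0.08 (SE 0.07). Larger changes that did not pass included Gtse1 (0.46, SE 0.17), Polk (0.36, SE 0.12) and Pml (0.21, SE 0.07). The lowest was Rrm2b at -0.18 (SE 0.09), and 21 of the 31 tested had a log2 change above 0. Gdf15, a secreted stress signal, went from 0.873 ± 0.16 to 1.29 ± 0.29 CPM without passing (SD, n = 3; edgeR adjusted p = 0.228). By role, 2 of 9 tested arrest genes, 1 of 9 death genes, 1 of 5 metabolic genes, 0 of 5 repair genes and 0 of 3 feedback genes rose.

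**Figure D4:**
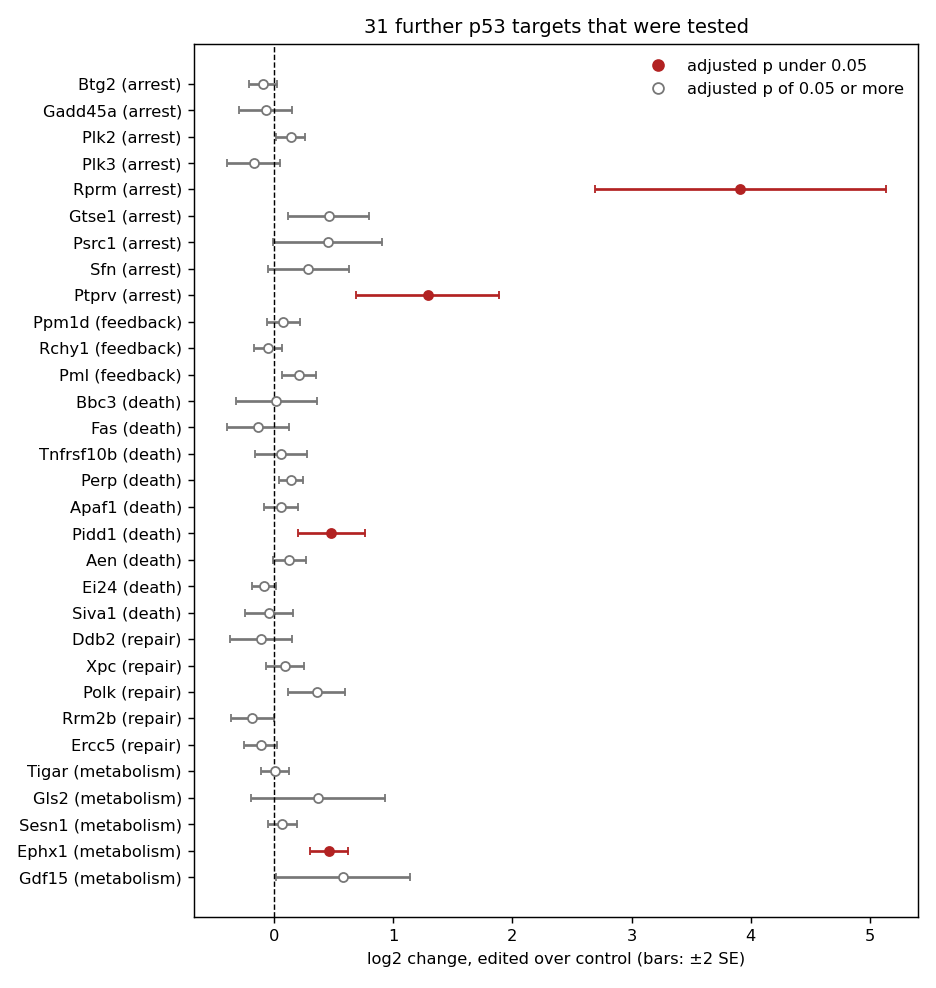
Log2 change, edited over control (horizontal axis), with bars of ±2 SE, of the 31 further p53 targets that were tested, with the role of each in brackets. The 4 filled points passed an adjusted p of 0.05 and most others lie close to 0.

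The RNA of p53 itself did not pass the threshold, and 1 of its regulators rose. Trp53, which encodes p53, was at 53.1, 48.3 and 48.7 CPM in controls and at 52.0, 56.0 and 52.3 CPM in edited hearts (log2 0.09, SE 0.06, edgeR adjusted p = 0.382). Its groups overlapped. Of 13 tested genes among 15 of the p53 family and its direct regulators, 1 rose (7.69%, against 4.93% of all tested genes), Ppp1r13l, an inhibitor of p53 (36.0 ± 0.89 to 43.9 ± 3.5 CPM; SD, n = 3; edgeR adjusted p = 0.0197). Mdm4, the partner of Mdm2, had a log2 change of -0.05 (SE 0.06), and the damage kinases Atm and Atr 0.08 (SE 0.09) and 0.03 (SE 0.08). The damage kinase Chek1 had 0.40 (SE 0.12) and did not pass (edgeR adjusted p = 0.0602). RNA counts do not show the amount of p53 protein.

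Among paralogs of the 10 genes, 1 rose (8.33% of those tested, against 4.93% of all tested genes) and 0 fell. Of 14 paralogs 12 were tested, and the one that rose was Phlda1 (19.7 ± 2.6 to 26.0 ± 2.1 CPM; SD, n = 3; edgeR adjusted p = 0.0212), and the median log2 change was -0.01. Ddit4, the closest relative of Ddit4l and also a brake on mTORC1, had 45.7, 34.2 and 45.4 CPM in controls and 36.4, 36.2 and 30.4 CPM in edited hearts. Its log2 change was -0.28 (SE 0.12, edgeR adjusted p = 0.192), beside 2.43 for Ddit4l. Sesn1 and Sesn3 had 0.07 (SE 0.06) and -0.02 (SE 0.17), and Bak1, which acts beside Bax, 0.00 (SE 0.06). Among 6 tested genes of 8 listed for their name as inhibitors of cyclin-dependent kinases, Cdkn1a and Cdkn3 rose (33.3%, against 4.93% of all tested genes). Cdkn1a is also 1 of the 10 genes. Cdkn1b (p27) and Cdkn1c (p57) had log2 changes of -0.01 (SE 0.07) and -0.11 (SE 0.07). Cdkn2c and Cdkn2d had 0.19 (SE 0.08) and 0.18 (SE 0.08) and did not pass either.

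Of 18 tested genes of 20 listed from the BCL2 family and the caspases, 2 fell, where 4.74% of all tested genes were called lower. The survival gene Bcl2 fell from 19.2 ± 1.4 to 15.5 ± 1.2 CPM (SD, n = 3; edgeR adjusted p = 0.0379), and Bik, which promotes death, fell from 12.1 ± 0.34 to 9.68 ± 0.52 CPM (SD, n = 3; edgeR adjusted p = 0.04). The survival genes Bcl2l1 and Mcl1 had log2 changes of -0.09 (SE 0.07) and -0.07 (SE 0.05) and did not pass.

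Lists of genes linked to Sesn2 and Cdkn1a were also read, as a description. Sesn2 is also a target of Atf4, the factor of the integrated stress response, and of 12 tested genes of that response 2 rose (16.7%, against 4.93% of all tested genes). These were Phgdh (log2 0.78, SE 0.14) and Psat1 (log2 0.70, SE 0.10), enzymes that make serine. Atf4 had a log2 change of 0.00 (SE 0.08), and the targets Ddit3 and Trib3 had -0.24 (SE 0.07) and -0.46 (SE 0.22) without passing. Over the 12 genes the median log2 change was 0.00, with a range of -0.46 to 0.78, and 5 were above 0. The protein p21 is known to hold down genes of division through the DREAM complex. Of 15 such genes, 12 rose and 0 fell, against 4.93% of all tested genes called higher and 4.74% called lower, with a median log2 change of 0.44 and a range of 0.23 to 0.65. Top2a (0.44, SE 0.08) and Ccna2 (0.42, SE 0.07) had the smallest p among them, at edgeR adjusted p = 0.0035 and 0.00383. The others that rose were E2f1, Birc5, Mki67, Bub1, Ccnb1, Aurkb, Mcm5, Plk1, Cdc20 and Cdc6, and Cdk1, Cdc25c and Ccnb2 did not pass. The part of Atf4, p21 or cell content in these values was not tested.

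Genes with the most similar pattern over the 6 libraries were found by Pearson correlation of log2 CPM among 10745 genes of at least 5 CPM, as a description. For Cdkn1a they were Rassf4 (r = 0.9961) and Tmem120a (0.9934), and for Phlda3 they were Eef1a1 (0.9987) and Hid1 (0.9975). For Zmat3 they were Acvr1b (0.9979) and Bloc1s5 (0.9952), and for Ddit4l they were Arrdc4 (0.9972) and Spc24 (0.9923). None of the 8 is another of the 10 genes. Of the 8, Eef1a1, Hid1, Arrdc4 and Spc24 were themselves called higher, with log2 changes of 0.15, 0.42, 0.43 and 0.51. The 6 points of each correlation share their libraries and their depth.

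The calls of single genes held to different degrees. Apart from the 1.5-fold test, Cdkn1a was called in all 15 alternative fits, with log2 changes of 0.44 to 0.64. Ddit4l (2.15 to 2.89) and Phlda3 (0.39 to 0.51) were called in 13 of them, and Zmat3 (0.26 to 0.49) in 9. Eda2r was called in 3 and Sesn2 in 3. Bax, Mdm2 and Trp53inp1 were called in 0, and Ccng1 in 1.

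**Figure D5:**
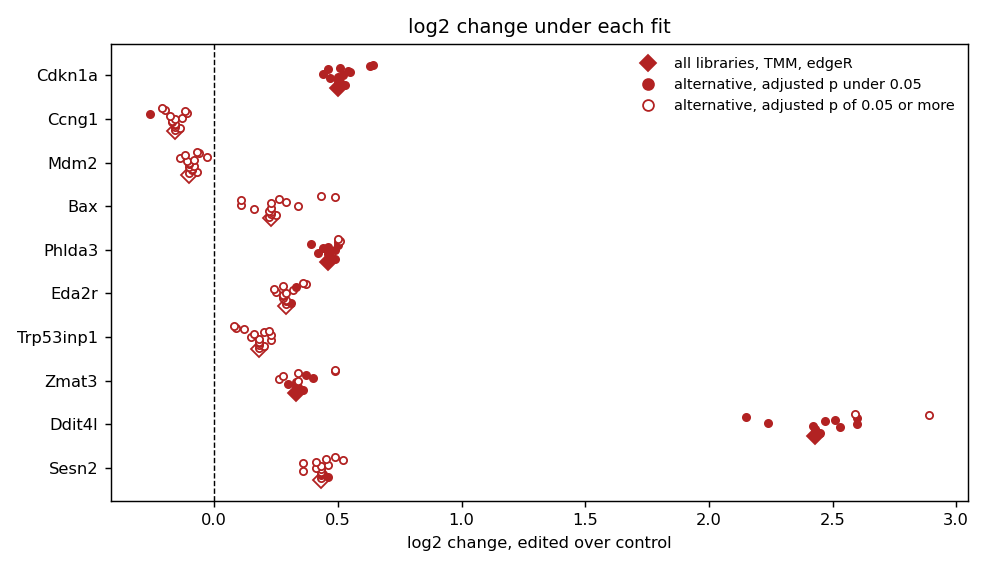
Log2 change, edited over control (horizontal axis), of each gene under the fit to all libraries (diamond) and under 15 alternatives (circles, spread vertically to be seen), filled where the adjusted p was under 0.05. Every point of Cdkn1a is filled, and each gene keeps its sign.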

How the data were processed

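Heart RNA was measured in 6 libraries, 3 edited and 3 control. The authors deposited raw read counts per gene. The tools named per the submitters' processing notes are cutadapt, FastQC, featureCounts and STAR, with the build mm10. Their versions and the strand setting are not given here. Each library has 2 count columns, 1 per mate file by name, with identical values, so the first was used. No pair of libraries of the same group agreed within sampling noise (chi-square per degree of freedom 3.949 to 14.41). The deposited gene lengths served for TPM.

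Genes were kept by filterByExpr and scaled by TMM factors (0.9711 to 1.039). Groups were compared with edgeR 4.0.16 (R 4.3.3) by its robust quasi-likelihood test. Tested on simulated data for this comparison (14879 genes), it recovered 70.1% of 1.5-fold changes, 92.5% of 2-fold changes and 93.9% of 4-fold changes, and 16 unchanged genes were called. Changes were simulated only in genes with a mean above 1 CPM, and differences in tissue content or sex were not simulated. Folds below 1.5, such as those of Cdkn1a, Phlda3 and Zmat3, were not simulated either, so these rates do not cover them. Alternatives used DESeq2 1.42.0, limma 3.58.1, other scalings and filters, a replicate block and each library left out. Named genes are Camk2d, the 10 targets, genes of the other lists past the threshold (the 2 with the smallest p where none passed) and the 2 nearest patterns of each called target. Genes named without passing in a list that had calls, and marker genes, were picked as examples after their values were seen. The members and lists were chosen with earlier results of these data known. A result of 1 listed gene is not reported here.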

Additional observations from a re-analysis of the deposited data

How the results depend on the processing

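Over 16 alternatives for each of the 10 genes, 0 reversed a direction. The number called higher was 4 with all libraries, 1 in the test for a change above 1.5-fold (Ddit4l), 1 with control 2 as the only control and 1 with Myl7 in the fit (Cdkn1a in both). The last pair of alternatives was chosen after seeing the data. With control 2 as the only control, the spread comes from the edited libraries alone. It was 3 to 5 when 1 library was left out, and 6 with upper-quartile scaling. The number called lower was 0, and 0 to 1 when 1 library was left out (Ccng1 without edited 1). Of the 31 further targets, 4 were called with all libraries, 2 by DESeq2's Wald test (Ephx1 and Rprm), 1 above 1.5-fold (Rprm), 0 with control 2 as the only control and 0 with Myl7 in the fit; leaving out 1 library gave 2 (without control 3) to 6 (without edited 1). The cause of these moves was not tested.

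The replicate numbers are shared by the groups but gave no sign of pairing. Deviations from the group means correlated at r = 0.02, -0.0957 and -0.0756 for the numbers 1, 2 and 3, and not every library correlated best with its own number. With a replicate block, 4 of the 10 genes and 3 of the further targets were called, and 1077 genes over the whole table. Low counts limit Ddit4l in controls (26 to 39), Sesn2 (85 to 181) and Rprm (0 to 52), whose folds carry wide errors.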
